A study of Mus musculus with 2 samples.

Results

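The AP-1 transcription factor subunits described here are the genes Fos, Fosb, Jun, Junb, Jund and Atf3. All probe sets annotated to these 6 genes alone were taken, whatever their signal, which gave 10 of the 12422 probe sets that are not array controls. RNA was measured on 1 array for each of 2 samples of mouse bone marrow cells, sorted for the surface phenotype Lin-c-kit+Sca1+ (LSK), the fraction of marrow in which stem cells and multipotent progenitors of blood are concentrated. Both samples belong to 1 group, are numbered 1 and 2 in their titles, and went through 2 rounds of RNA amplification. The labels give no treatment, genotype, strain or age, and do not tell if separate animals or sorts were used, so the spread between the samples may be technical. These genes were chosen by their signals in these 2 samples, with the difference between the samples already known. Their values are therefore a description, and with 1 group of 2 samples no test was made.

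AP-1 is a dimer of basic leucine zipper proteins. Fos proteins bind DNA only together with a partner such as a Jun protein, while Jun proteins can also pair with each other, and Atf3 pairs with Jun proteins and acts mostly as a repressor. In many cell types Fos, Fosb, Jun, Junb and Atf3 are immediate early or stress-responsive genes, transcribed soon after a stimulus from promoters read by serum response factor, CREB/ATF proteins and AP-1 itself. Jund is usually present at a steadier level in resting cells. In blood cells these factors take part in the control of proliferation, myeloid differentiation and stress responses, and JunB is known to restrain the expansion of haematopoietic stem cells.

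The promoters of the members were examined for shared sequence, since most of their probe sets differed between the samples in the same direction. RefSeq promoter sequences of the assembly GRCm38.p6, from 250 bases before to 50 bases after the start site, were matched by symbol for 6 of 6 genes. The last 150 bases before the start site are shown, 5′ to 3′, for the 5 genes with a motif match there. Both strands were searched for the CArG box of serum response factor. They were also searched for TGACGTCA, the cAMP response element (CRE) bound by CREB and ATF proteins. A variant of that element known from the Jun promoter, TGACATCA, was included. The AP-1 site proper was searched as TGACTCA. Of the general promoter elements, the TATA box was searched as TATAAA. The element bound by NF-Y was searched as CCAAT. The GC box bound by Sp1 was searched as GGGCGG. The CRE core TGACG, which lies within the full CRE, was added after the windows had been seen. Capitals mark every match on either strand.
Fos (chr12:85473740-85473889, + strand): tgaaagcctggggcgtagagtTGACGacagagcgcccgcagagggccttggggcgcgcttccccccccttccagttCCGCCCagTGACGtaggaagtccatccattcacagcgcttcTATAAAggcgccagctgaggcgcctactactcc
Fosb (chr7:19310046-19310195, - strand): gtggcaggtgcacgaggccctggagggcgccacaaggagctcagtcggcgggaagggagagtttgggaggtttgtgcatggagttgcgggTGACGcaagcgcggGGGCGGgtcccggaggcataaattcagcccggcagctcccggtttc
Jun (chr4:95052223-95052372, - strand): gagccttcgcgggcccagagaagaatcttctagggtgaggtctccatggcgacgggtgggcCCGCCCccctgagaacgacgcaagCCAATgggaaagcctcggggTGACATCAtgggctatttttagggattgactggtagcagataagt
Junb (chr8:84978749-84978898, - strand): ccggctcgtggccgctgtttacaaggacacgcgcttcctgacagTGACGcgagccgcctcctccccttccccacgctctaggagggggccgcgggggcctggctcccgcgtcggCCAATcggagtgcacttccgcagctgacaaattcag
Atf3 (chr1:191183334-191183483, - strand): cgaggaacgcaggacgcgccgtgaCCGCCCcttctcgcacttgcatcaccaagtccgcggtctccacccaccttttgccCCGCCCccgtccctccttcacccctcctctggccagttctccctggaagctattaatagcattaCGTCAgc

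The CRE core TGACG was present in the windows of Fos, Fosb, Junb and Atf3, 4 of 6, and in 20.8% of all 32851 windows of this length in the table. In Fos it began 129 and 66 bases before the start site, in Fosb 60 and in Junb 106 bases before it, and in Atf3 it lay on the opposite strand, from 7 to 3 bases before it. Jun instead held TGACATCA from 45 to 38 bases before its start site, a match found in 3.62% of all windows. The GC box was present in 4 of 6 windows (Fos, Fosb, Jun and Atf3) against 35.7% of all. CCAAT was present in 3 of 6 (Jun, Junb and Atf3) against 37.4%, and TATAAA in 2 of 6 (Fos and Junb) against 13.6%. The Atf3 CCAAT match at bases 6 to 10 and the Junb TATAAA match at bases 1 to 6 lay after the start site. Neither is among the bases shown. The full CRE, the AP-1 site TGACTCA and the CArG box were in 0 of 6 windows and in 1.79%, 5.20% and 1.63% of all. Sites further than 250 bases before the start site lay outside the windows and could not be found, so these genes may still have them. The Jund window, also on chromosome 8, matched none of the motifs and had a GC content of 46.7%, below the median of 52.7% over all windows. The other members' windows had 58.7% to 68.3%. A gene can have more than 1 start site, and each member has 1 window here.

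**Figure D1:**
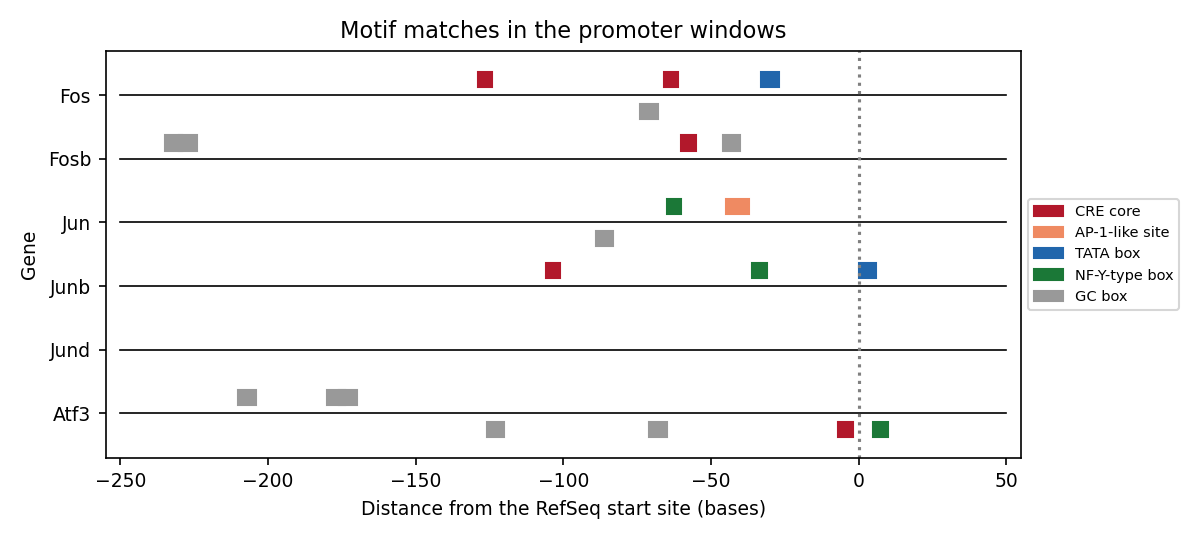
Motif matches in the promoter windows of the 6 genes, plotted as distance in bases from the RefSeq start site, with matches on the gene's strand above each line and on the opposite strand below it. The CRE core lies in 4 of 6 windows, and the Jund window has no match.

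Signals are quantile-normalized array intensities on a linear scale. Signals under 20 were set to 20, called the floor, before log2 values and folds were taken, so folds with 1 side at the floor are minimum values, given as "at least". The control level, the 90th percentile of the 15 probe sets for bacterial control genes, was 12.1 in sample 1 and 8.91 in sample 2. Of the 10 AP-1 probe sets, 6 were above it in sample 1, 8 in sample 2, and 6 in both. Neither probe set levels nor folds order the genes by abundance, since each probe set hybridises with its own strength.

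Each of the 6 genes had at least 1 probe set with a higher signal in sample 2 by 2-fold or more. By probe set, 7 of 10 were 2-fold or more higher in sample 2 and 5 of 10 were 4-fold or more higher, where 5.48% and 0.869% of all 12422 probe sets were. None of the 10 was 2-fold or more higher in sample 1, where 5.49% of all probe sets were. Probe sets at the floor in both samples, 49.6% of all 12422 and 2 of the 10, have a log2 difference of 0 and could not be counted. The median log2 difference, sample 2 minus sample 1, was 2.33 (5.03-fold) over the 10 probe sets with the bounded ones at their bound, and 0 over all 12422. Since the genes were picked for this difference, the shares describe the choice as much as the cells. The labels give no condition to which the higher sample could be assigned.

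**Figure D2:**
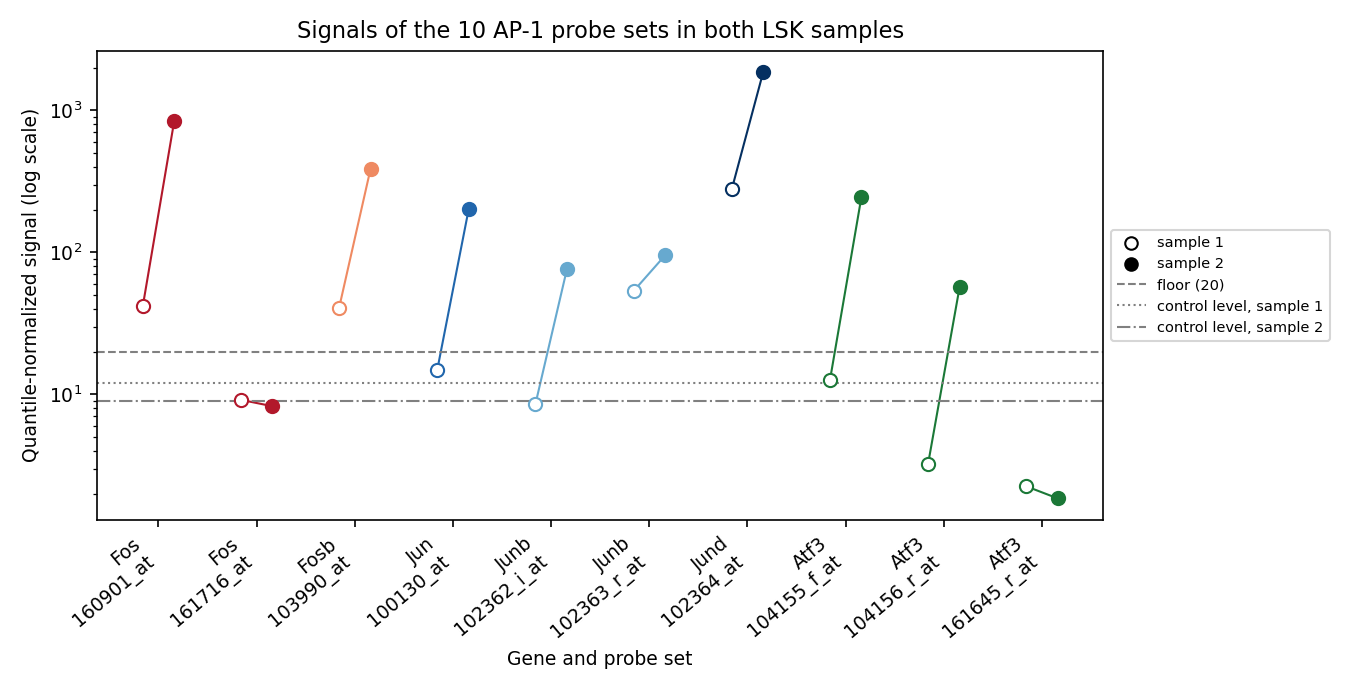
Quantile-normalized signals (log scale) of the 10 AP-1 probe sets in sample 1 (open circles) and sample 2 (filled circles), with the floor of 20 and the control level of each sample as horizontal lines. In 8 probe sets the filled circle is above the open one, and the remaining probe set of Fos and the third one of Atf3 lie under the floor in both samples.

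Among the Fos proteins, Fos, the founding member and the partner that gives AP-1 much of its activating capacity, gave 41.7 in sample 1 by probe set 160901_at, against 839 in sample 2. That is 20.1-fold higher in sample 2 (mean log2 signal 7.55 ± 3.06, SD, n = 2). Of the 4212 probe sets above the floor in both samples, 1 had a larger difference toward sample 2, and it belongs to the alpha globin gene Hba-a1 (30.1 and 670). The other Fos probe set, 161716_at, for which the annotation lists no accession, had 9.15 and 8.25, under the control level in both samples, and shows no difference of its own. The 20.1-fold value thus rests on 1 of the 2 Fos probe sets.

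Fosb encodes a close relative of Fos that also exists as a truncated form without the activating end. It had signals of 40.7 and 387, 9.50-fold higher in sample 2 (mean log2 signal 6.97 ± 2.30, SD, n = 2), from its single probe set. This was the 7th largest difference toward sample 2 among the 4212. The sources used here do not say which Fosb form the probe set detects. Both Fos genes were thus above the floor in both samples, and their folds are measured values, not bounds.

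Jun, which encodes the partner that activates most strongly among the Jun proteins, had 14.9 in sample 1 and 201 in sample 2. Its sample 1 signal was above the control level but under the floor, so it was at least 10.1-fold higher in sample 2 (mean log2 signal 5.99 ± 2.36, SD, n = 2, with sample 1 at the floor). The deposited signals were 15.6 and 197.8. In sample 1 Jun thus lay in the range of weak signals that were given no order, and in sample 2 well above it.

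Jund, the Jun protein often linked to slower growth, was far above the floor in both samples. Its signal was 279 in sample 1 against 1862 in sample 2, a 6.68-fold difference (mean log2 signal 9.49 ± 1.94, SD, n = 2), the 19th largest difference of the 4212. Its fold is not limited by the floor, and of the 8 probe sets with a signal above the floor it ranged least with the processing, from 2.61 to 2.78 on the log2 scale over 5 alternatives.

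Junb, which encodes a weaker activator that can oppose Jun, had a pair of probe sets that pointed the same way but fell on different sides of 2-fold. Probe set 102363_r_at had 53.5 and 95.2, 1.78-fold higher in sample 2 (mean log2 signal 6.16 ± 0.59, SD, n = 2), at rank 594 of the 4212. Probe set 102362_i_at, made from the same sequence record, had 8.55 and 75.8. Its sample 1 signal was under the control level, and it was at least 3.79-fold higher in sample 2. Over the 6118 probe sets that exceeded the control level on each array, the SD between the samples was 0.58 in log2 units. The first probe set's SD of 0.59 was close to this pooled value. The pooled value is a root mean square, which large differences raise, so it is not that of a typical probe set. The letters i and r in these names mark probe sets that did not meet all of the maker's design rules. Whether Junb passed 2-fold therefore depended on the probe set.

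Atf3, a stress-responsive factor that joins AP-1 through Jun proteins, had 12.6 and 244 by probe set 104155_f_at, at least 12.2-fold higher in sample 2 (mean log2 signal 6.13 ± 2.55, SD, n = 2). Probe set 104156_r_at, from the same record, had 3.25 and 56.6, at least 2.83-fold higher. The deposited signals of these sets were 13.1 and 236.3 in one and 3 and 54.8 in the other. The third probe set, 161645_r_at, from a different record, had 2.25 and 1.85, under the control level in both samples. The letter f marks a probe set whose probes resemble several related sequences, so part of its signal could belong to another transcript.

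**Figure D3:**
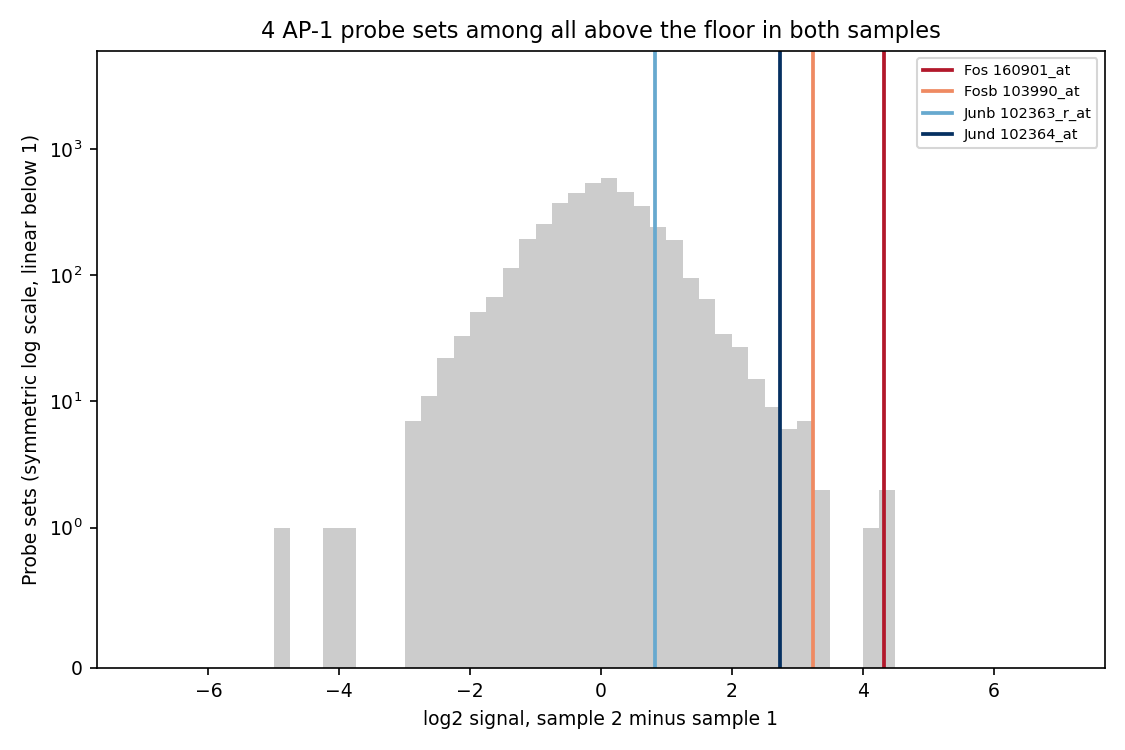
Number of probe sets (symmetric log scale) by log2 signal difference, sample 2 minus sample 1, for the 4212 probe sets above the floor in both samples, with the 4 AP-1 probe sets of that kind as vertical lines. Fos at 4.33, Fosb at 3.25 and Jund at 2.74 lie in the right tail, and the Junb probe set at 0.83 lies within the bulk.

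With 2 samples a gene has only 2 values, and the genes nearest to a member in that pair of log2 signals were listed, out of 3329 other genes with both signals above the floor. This distance also depends on how strongly each probe set hybridises, so it shows similar signals on these arrays and not a shared pattern. Nearest to Fos were Hba-a1 (30.1 and 670, at a distance of 0.57), the immediate early transcription factor gene Egr1 (36.4 and 410, at 1.05) and Dusp1, which encodes a phosphatase that switches off MAP kinases (42.0 and 399, at 1.07). Nearest to Jund were the ribosomal protein gene Rps18 (307 and 1850, at 0.14), Akirin2 (306 and 1337, at 0.50) and the endoglin gene Eng (419 and 1700, at 0.60). Nearest to Junb were F7, Imp3 and Senp3, at distances of 0.03 to 0.05.

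Of 8 other AP-1 subunits listed, 5 were measured. Only Batf was above the floor in both samples, and it did not differ by 2-fold. Batf, an AP-1 factor of lymphocytes, had 36.0 and 47.6. Fosl1 (3.45 and 10.4), Fosl2 (7.15 and 15.9) and Batf3 (12.8 and 10.2) were under the floor in both samples. Atf2, a target of the stress kinases that pairs with Jun, had 9.15 and 26.7 by one probe set, at least 1.335-fold higher in sample 2. The other Atf2 probe set had 12.2 and 6.95. Most of these signals are so low that a difference was not detectable at this level.

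More distant leucine zipper factors had smaller median differences than the members. The members had been picked for their difference, so this order follows from the choice. Of 6 small Maf and CNC genes above the control level in both samples, all had the higher signal in sample 2 but only 2 by 2-fold or more, where 9.62% of all 4707 genes above that level were. The 2 were Nfe2, an erythroid and megakaryocyte factor, at 213 and 442, and Mafk at 12.5 and 42.2, at least 2.11-fold. Bach1, a repressor of haem-responsive genes, had 113 and 184 and Mafg 43.7 and 54.7. The median difference of the list was 0.53, and 0 over the 4707 genes.

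Of the 5 C/EBP and related genes above the control level, 2 were 2-fold or more higher in sample 2 and 1 in sample 1. Over the 4707 genes these shares were 9.62% and 11%. Cebpb, a factor of emergency granulopoiesis, had 17.6 and 60.9 (at least 3.05-fold), and Cebpd 22.8 and 62.8. Cebpa, which drives myeloid commitment, went the other way with 141 and 54.8. The median of the list was 0. None of the 4 CREB and ATF genes above the control level differed by 2-fold. Atf4, the factor of the integrated stress response, had 169 and 255, Xbp1 had 25.7 and 43.3, and Creb3l1 had 125 and 124.

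Kinase genes that act before AP-1 transcription differed by less than 2-fold where both signals were above the floor. With the floor applied, none of the 10 kinase genes of the MAP kinase cascades above the control level reached 2-fold, with a median of -0.21. Some of these folds are minimum values. Map2k1, outside the naming rule, had 38.85 and 15.25, at least 1.94-fold higher in sample 1, so it may have passed 2-fold. Another Map2k1 probe set had 1.30 and 6.50. Map3k1, an activator of the JNK cascade, had 126 and 103 (15.0 and 25.0 by another probe set). Mapkapk2, a target kinase of p38, had 114 and 75.9, and Mapk14, which encodes p38 itself, 96.2 and 61.3. These kinases act through phosphorylation, which the arrays do not measure.

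Of 6 genes for factors and coactivators that bind Fos and Jun promoters, 1 was 2-fold or more higher in sample 2. Of the 4707 genes above the control level 9.62% were, and the list median was 0.50. Mef2d, whose product binds the Jun promoter, had 256 and 579, 2.26-fold apart. Crebbp, a coactivator of CREB and AP-1, had 87.6 and 170, and Stat3 110 and 144 (30.3 and 46.7 by another probe set). Mef2c, chosen after its values were seen, did not pass the filter, with 8.25 and 83.2, at least 4.16-fold higher in sample 2. Its other probe sets had 9.55 and 58.95, 11.4 and 37.35, and 6.85 and 10.375. Serum response factor was not analysed here.

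Genes for proteins that act on AP-1 proteins did not differ by 2-fold where both signals were above the floor. Of 7 measured, 3 exceeded the control level in each sample. Cops5, a coactivator of Jun and Jund, had 35.8 and 31.7. Itch, the ligase that marks Jun proteins for degradation, had 65.5 and 60.5, and Apex1, which keeps the DNA-binding cysteine of Fos and Jun reduced, had 141 and 96.2. Men1, whose product menin binds Jund and represses its activity, had 5.05 and 8.40. Fbxw7 (3.35 and 14.9), Hdac3 (7.40 and 5.28) and Smad3 (4.00 and 4.50) were likewise under the floor in both samples.

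Transcripts such as Fos are short-lived because proteins bind AU-rich elements in them. Of 7 genes for such binding proteins, 3 were 2-fold or more higher in sample 2 and 1 in sample 1, where 9.62% and 11% of the 4707 genes were. Zfp36, itself an early response gene whose product speeds the decay of such transcripts, had 26.1 and 133, 5.09-fold apart. Its relative Zfp36l1 had 33.0 and 237, 7.18-fold apart, and the stabilising protein gene Elavl1 had 12.9 and 49.5, at least 2.48-fold. Zfp36 and Elavl1 are outside the naming rule and complete the count of 3. The third relative, Zfp36l2, went the other way with 412 and 203, though another of its probe sets had 38.2 and 36.7. Hnrnpd had 185 and 176.

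Other immediate early genes had higher signals in sample 2 along with the AP-1 genes. Of 30 measured, 19 exceeded the control level in each sample, and of these 12 were 2-fold or more higher in sample 2 and 0 in sample 1, with a median difference of 1.62 (3.08-fold). Over the 4707 genes above that level the shares were 9.62% and 11%. Without that filter, 16 of 30 were 2-fold or more higher in sample 2, where 6.44% of all 8251 genes were, and 0 of 30 in sample 1, where 6.62% were. Klf6, a zinc finger factor, had 17.4 and 566, at least 28.3-fold. Nr4a1, an orphan nuclear receptor named after its values were seen, had 4.40 and 545, at least 27.2-fold. Ier2 had 115 and 395, 3.43-fold apart. Members of the same list without such a difference included the kinase genes Pim1 (724 and 690) and Plk3 (493 and 446). Outside the naming rule, so did Plk2 (37.5 and 42.2). Myc (14.0 and 18.05) and Id1 (15.0 and 13.8) were under the floor in both samples. Id3 (15.75 and 28.55) and Nr4a2 (18.7 and 31.5) were under it in sample 1, with minimum folds below 2. The list had been seen to differ between these samples before it was used here, so it is not independent evidence.

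Listed target genes of AP-1 had no common direction. Of 13 above the control level in both samples, 2 were 2-fold or more higher in sample 2 and 1 in sample 1, numbers that are near the 9.62% and 11% of the 4707 genes. The median difference over the 13 was 0, as over the 4707 genes. The nuclear lamina gene Lmna had 21.8 and 68.1 by one probe set but 34.8 and 12.4 by another. Cdkn1a, the gene of the cell cycle inhibitor p21 and the other of the 2, outside the naming rule, had 33.5 and 75.4. The metallothionein gene Mt1 was higher in sample 1, with 46.9 and 17.9 (at least 2.34-fold), and Mt2 had 191 and 108. The DNA methyltransferase gene Dnmt1 had 141 and 75.6 (3.95 and 8.20 by another probe set), and the haem oxygenase gene Hmox1 103 and 84.0.

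**Figure D4:**
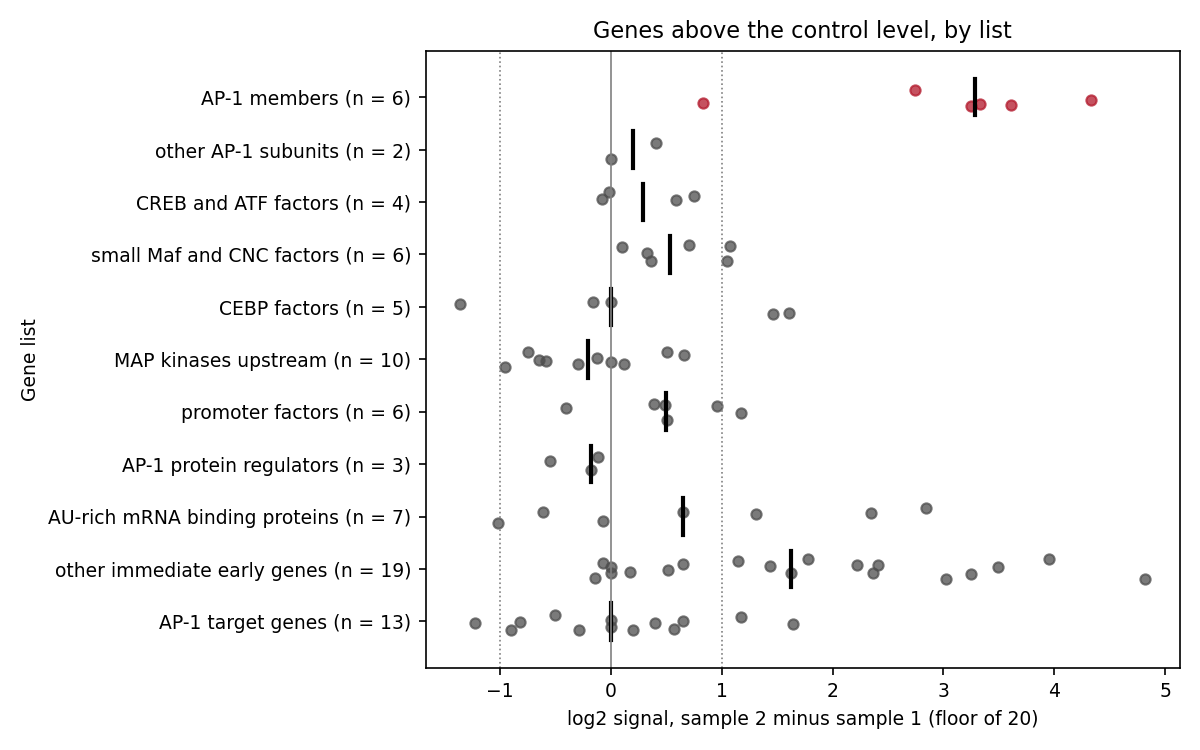
Log2 signal difference, sample 2 minus sample 1, for each gene above the control level in both samples (points), by gene list, with the list median as a black bar and dotted lines at 2-fold. The 6 AP-1 genes (red) have a median of 3.29 and the other immediate early genes 1.62, while the target genes and the C/EBP factors have 0. The AP-1 genes were picked for this difference.

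Markers of cell types also differed between the samples, and because these are bulk samples, more cells of a type and more RNA per cell cannot be told apart. Summed over 10 neutrophil markers the signal was 632 in sample 1 and 1270 in sample 2, with 3 of the 8 markers above the control level 2-fold or more higher in sample 2, where 9.62% of the 4707 genes were. The sum over 10 monocyte and macrophage markers was 697 and 351, with 5 of 7 higher in sample 1 by that much, where 11% of the 4707 genes were, and 0 in sample 2. The 4 granule genes of myeloid progenitors summed to 2625 and 736, with 3 of 4 higher in sample 1 by 2-fold or more, against the same 11%. Mpo (1862 and 288) made up most of the sample 1 sum, while Prtn3 had 459 and 342. The 7 early lymphoid genes summed to 368 and 1231, with 4 of 5 higher in sample 2 by 2-fold or more, against the same 9.62%. The sums were 177 and 186 for 8 B cell markers, 137 and 126 for 9 T and NK cell markers, and 333 and 315 for 8 stromal and endothelial markers. The 8 erythroid markers summed to 907 and 1054, with large differences both ways. Hba-a1 was 22.3-fold higher in sample 2 (30.1 and 670), while Car1 (488 and 75.9) and Klf1 (215 and 80.5) were 6.43-fold and 2.67-fold higher in sample 1. Apart from the 4 granule genes, all above the control level in both samples, each list summed here held genes on either side of that level. In both samples it was exceeded by at least 1 probe set of 8 of 10 neutrophil markers (S100a8 had 301 and 459, Mmp8 3.65 and 2.35) and 7 of 10 monocyte and macrophage markers (Cd14 had 152 and 65.9, Itgam 3.65 and 1.50). The count was 5 of 8 for B cells (Cd79b had 38.1 and 38.6, Ebf1 3.10 and 2.70), 3 of 9 for T and NK cells (Lat had 63.6 and 51.9, Cd3e 5.75 and 4.80) and 6 of 8 for stromal and endothelial cells (Pecam1 had 49.4 and 24.3, Cdh5 1.85 and 1.20). No listed marker was at a signal of exactly 0. Kit, on which the cells were sorted, had 25.8 and 19.4, and Ly6a, the gene of Sca-1, was not analysed here. The part of cell type differences in the AP-1 values was not tested.

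RNA and hybridisation controls differed between the samples too. The ratio of 3′ to 5′ control probe sets was 10.4 in sample 1 and 22.2 in sample 2 for Actb, and 11.2 and 19.0 for Gapdh. It was 3.84 and 3.26 for 18S rRNA, and 8.44 and 7.58 for Tfrc, whose 5′ signals of 2.50 and 2.25 were under the control level. All 9 probe sets of the hybridisation controls BioB, BioC, BioDn and Cre had higher signals in sample 2, by 1.13-fold to 4.12-fold with a median of 1.52-fold. The part of these differences in the AP-1 values was not tested.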

How the data were processed

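The authors deposited 1 linear signal intensity per probe set, 12488 in each of 2 samples. Both columns had a mean of 53.94. The summary method and scaling are not given in the sources used. Here both arrays were quantile-normalized (Python 3.11.15, numpy 2.4.6, pandas 2.3.3), signals under 20 were set to 20, and log2 was taken. The 66 control probe sets entered no count. Of the others, 10833 named 1 gene, 396 several and 1193 none, and 57.9% of values were at or under the floor. A gene in a list took the value of its strongest probe set (by mean log2), if any of its sets exceeded the control level on both arrays. Of 222 listed genes, 33 had no value here.

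Members and lists were chosen with earlier results of these data known. Named were all members, all other AP-1 subunits and protein regulators, and in each other pathway list the 3 highest mean signals plus the largest difference of 2-fold or more each way. Alternatives were the deposited and the median-centred scaling, a floor of 10, no floor, an offset of 32, no filter, a stricter control level and the mean over probe sets. The processing was tested on simulated data with changes planted only in probe sets of high signal, and with less spread than between these arrays. That test did not cover signals near the floor. Precision is limited by the number of arrays. Protein sequences were not used here.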

Additional observations from a re-analysis of the deposited data

How the results depend on the processing

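The count of 7 AP-1 probe sets 2-fold or more higher in sample 2 was 7 under each of the 5 alternatives run for it. The 8 probe sets above the floor in at least 1 sample kept their direction under all 5, and the 2 under the floor in both have no order. Sizes of bounded values depended on the floor. With a floor of 10 the log2 difference was 4.28 for Atf3 104155_f_at, 2.50 for Atf3 104156_r_at and 2.92 for Junb 102362_i_at. With no floor these were 4.28, 4.12 and 3.15. With an offset of 32 it was 3.56 for Fos, 2.53 for Fosb, 2.31 for Jun and 2.63 for Atf3 104155_f_at. The AP-1 list median was 2.57 with the offset and 2.45 with the mean over probe sets, the C/EBP median 0.65 with the highest bacterial control as the control level, and the early lymphoid median 1.23 without a filter. Of 242 values with both samples kept, these 14 moved by over 0.58, the SD between the samples in log2 units. A probe set's mean level was judged by its own SD, and a count by a change of over 1.5 times. Junb 102363_r_at stayed under 2-fold, from 0.57 to 0.89. Leaving out a sample leaves a level of 1 sample and no difference: log2 levels were 5.38 and 9.71 for Fos, 5.35 and 8.59 for Fosb, 8.12 and 10.86 for Jund, and the floor and 7.65 for Jun. Signals near the floor limit Jun, Junb and Atf3 in sample 1. No paired analysis was possible because there is only 1 group.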
